A study of Mus musculus with 26 samples.

Results

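RNA levels of 10 genes of lumicrine ROS1 and ERK signalling were followed through the initial segment (IS) and caput of the epididymis and the testis of ArKI and wild-type (WT) mice. The genes were chosen by symbol, and all 10 were found among the 23337 genes counted. They are the ligand gene *Nell2*, the receptor tyrosine kinase gene *Ros1*, the phosphatase gene *Ptpn6*, the PEA3 transcription factor genes *Etv1*, *Etv4* and *Etv5*, the ERK feedback genes *Dusp6*, *Spry2* and *Spry4*, and the glutathione-hydrolysing enzyme gene *Ggt1*.

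In lumicrine signalling, proteins made in the testis travel with the luminal fluid into the epididymis and act on its epithelium. NELL2, secreted by germ cells, binds the receptor ROS1 on the apical side of IS cells, and ROS1 passes the signal to the RAF, MEK and ERK kinases, while the phosphatase SHP-1, encoded by *Ptpn6*, restrains the receptor. ERK activity maintains the expression of the ETS factors ETV1, ETV4 and ETV5 and of its own inhibitors, the ERK phosphatase DUSP6 and the Sprouty proteins, and the IS fails to differentiate in male mice without ROS1.

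ArKI mice carry a germline knock-in that changes amino acids of 1 protein and is present in every cell, in testis and epididymis alike. All mice, mutants and WT controls, shared a mixed C57Bl/6N and 129 background and were 3 months old. Each genotype gave 5 IS, 5 caput and 3 testis samples, 26 in all, and the WT mice were littermates. Per the study's methods both segments came from the same 5 mice of a genotype, but which IS and caput sample share a mouse is not stated. The tests between the segments treat the samples as independent. The RNA is that of whole tissue, so fewer cells of a type and less RNA per cell cannot be told apart in any result below.

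Total counts were 4125768 to 11913469 in the 20 epididymal and 14077013 to 21376604 in the 6 testis samples. The testis samples came from another sequencing run, and the effect of tissue and that of run cannot be told apart. The IS genes *Rnase10* and *Ovch2* were at 9568 ± 571 and 2993 ± 117 CPM (counts scaled to one library size, SD, n = 5) in the WT IS, against 680 ± 490 and 148 ± 69.1 CPM in the WT caput. In the caput their levels spread widely, and WT caput replicates 3 and 4 and ArKI caput replicate 3 held the most *Rnase10* (1104, 1293 and 616 CPM). Adjusted p-values come from the quasi-likelihood test of edgeR, adjusted by Benjamini-Hochberg over every gene tested, unless another tool is named, and genes below 0.05 were called.

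Upstream sequences are shown for the feedback gene *Dusp6* and the factor gene *Etv5*, whose RNAs fell together in the ArKI IS, and for *Ros1*, whose RNA rose in the ArKI caput. Each runs 5′ to 3′ from 250 bases before to 50 bases after a RefSeq transcript start on GRCm38.p6. Capitals mark the PEA3 site AGGAAG, a motif bound by ETV1, ETV4 and ETV5, or CTTCCT where it lies on the other strand. The *Dusp6* window is chr10:99262981-99263280 on the plus strand, the *Etv5* window chr16:22438319-22438618 on the minus strand and the *Ros1* window chr10:52195195-52195494 on the minus strand.
Dusp6: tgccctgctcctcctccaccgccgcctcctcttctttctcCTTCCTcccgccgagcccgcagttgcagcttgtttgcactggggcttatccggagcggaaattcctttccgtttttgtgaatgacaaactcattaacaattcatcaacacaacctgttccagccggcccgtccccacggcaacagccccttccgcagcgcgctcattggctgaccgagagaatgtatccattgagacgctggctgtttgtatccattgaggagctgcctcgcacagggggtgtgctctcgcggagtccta
Etv5: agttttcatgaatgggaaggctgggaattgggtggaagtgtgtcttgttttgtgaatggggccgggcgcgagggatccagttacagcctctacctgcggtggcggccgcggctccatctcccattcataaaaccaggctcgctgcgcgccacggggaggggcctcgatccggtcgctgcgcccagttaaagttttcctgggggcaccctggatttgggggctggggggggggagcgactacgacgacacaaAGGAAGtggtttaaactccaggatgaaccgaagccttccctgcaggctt
Ros1: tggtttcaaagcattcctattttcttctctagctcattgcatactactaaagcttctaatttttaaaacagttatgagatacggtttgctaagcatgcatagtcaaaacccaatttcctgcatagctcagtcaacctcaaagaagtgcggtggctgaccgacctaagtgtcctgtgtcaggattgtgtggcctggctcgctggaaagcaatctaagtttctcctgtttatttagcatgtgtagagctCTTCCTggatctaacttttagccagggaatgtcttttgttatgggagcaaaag
With the start base as 1 and no position 0, the motif began at position -210 in *Dusp6*, at 2 in this *Etv5* start and at -3 in *Ros1*. The other *Etv5* start, chr16:22439521-22439820, held none. Windows were at hand for 7 of the 10 genes (*Dusp6*, *Etv1*, *Etv5*, *Ggt1*, *Ptpn6*, *Ros1* and *Spry2*). Elsewhere the motif stood once in *Ptpn6*, as 2 overlapping copies in 1 of the 2 *Etv1* windows (chr12:38779832-38780131), and 3 times in the *Ggt1* window chr10:75573245-75573544. The other 3 *Ggt1* windows and *Spry2* held none. The ETS core CCGGAA was found only in *Spry2* among these windows. Of all 32851 promoter windows of this length, 35.4% held AGGAAG and 14.9% CCGGAA on either strand, so these matches are common letters and are given as a description.

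On GRCm38, *Nell2* lies on chromosome 15 (95075230-95528559), *Ros1* on chromosome 10 (52045721-52195244), *Ptpn6* on 6 (124720707-124738714), *Etv1* on 12 (38779380-38870484), *Etv4* on 11 (101769742-101785371), *Etv5* on 16 (22381309-22439719), *Dusp6* on 10 (99263231-99267489), *Spry2* on 14 (105891947-105896819) and *Ggt1* on 10 (75561604-75586200). Counts were made over their exons. *Ptpn6* shares 195 exon bases with *Gm20531* on the opposite strand, and the strand setting of the counting is not given in the sources used here, so reads of the shared bases cannot be told apart. No other of the 10 genes shares exon bases with a neighbour.

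The ligand and its receptor were found on opposite sides of the duct system. *Nell2* was at 50.7, 43.9 and 44.0 CPM in the 3 WT testes, while the 5 WT IS samples held 0 to 2 counts each and the 5 WT caput samples 4 to 12 counts each. *Ros1* was at 535, 520, 545, 564 and 608 CPM in the WT IS, 268, 276, 266, 284 and 303 CPM in the WT caput and 2.74, 4.59 and 4.82 CPM in the WT testis. The 3 tissues did not overlap for either gene.

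Scaled to depth, the WT testis held 515 times the *Nell2* reads of the WT IS (1712 against 4 counts, 95% exact counting interval 201 to 1893, which covers counting error only). The testis exceeded the caput in *Nell2* by 59.6-fold (log2 fold change 5.90, SE 0.16). *Nell2* passed the filter of this fit only through the testis samples, so the fold is given as a description without a p-value. *Ros1* ran the other way, 134-fold lower in testis than IS and 67.9-fold lower in testis than caput (adjusted p = 1.9e-23 and 1.9e-22). In the fit of the 13 WT samples, 9 of the 10 genes were lower and 1 higher in testis than IS, where 42.5% of the 16402 genes tested were lower and 49.4% higher. Against the caput, 7 were lower and 2 higher, where 43.2% of all genes were lower and 48.8% higher. Besides *Nell2*, the gene higher in testis than caput was *Spry4*, an inhibitor of receptor tyrosine kinase signalling (5.24 ± 1.07 CPM, n = 3, against 2.40 ± 0.827 CPM, n = 5, adjusted p = 5.4e-05). *Etv5*, whose product also serves germ cell maintenance through Sertoli cells, stood at 19.5 ± 1.05 CPM in the testis and 37.7 ± 21.2 CPM in the caput, and this difference did not pass (log2 fold change -0.90, adjusted p = 0.061). It passed with library size scaling (-1.28, adjusted p = 0.012), with every gene that had a count (-1.02, adjusted p = 0.041), and without WT caput replicate 1 (-1.16, adjusted p = 0.0039) or 5 (-1.05, adjusted p = 0.038).

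**Figure D1:**
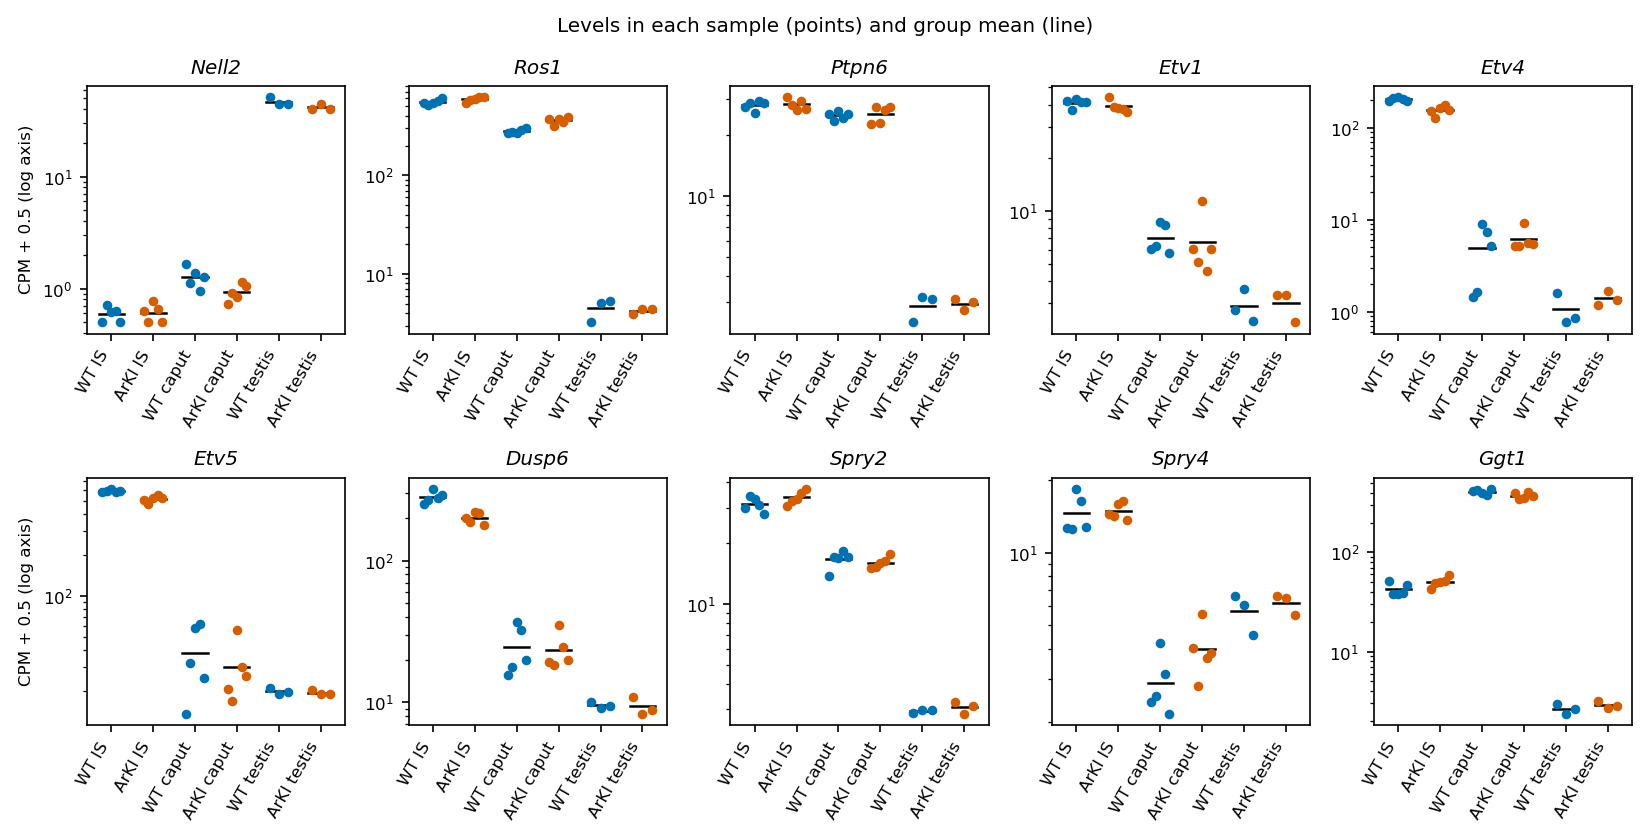
Level of each of the 10 genes in every sample, as CPM plus 0.5 on a log axis, with WT samples in blue, ArKI samples in orange and a line at each group mean. *Nell2* stood at 39.4 CPM or more in all 6 testes and at 12 counts or fewer in every epididymal sample, *Etv4*, *Etv5* and *Dusp6* were highest in the IS, and *Ggt1* was highest in the caput.

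Within the WT epididymis, most of the signalling genes were higher in the IS, and *Ggt1* was higher in the caput. All 9 genes tested were called between WT IS and WT caput, 8 higher and 1 lower in the IS, where 35.8% of the 13787 genes tested were higher and 35.4% lower. The median log2 difference was 2.54 over the 9 genes and 0.00038 over all genes.

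*Etv4* and *Etv5* differed most between the segments, and the remaining PEA3 gene, *Etv1*, differed less than *Dusp6*. *Etv4* was at 195, 209, 216, 209 and 199 CPM in the WT IS and at 0.956, 1.13, 8.55, 6.88 and 4.63 CPM in the WT caput, 47.7-fold apart (log2 fold change 5.57, SE 0.33, adjusted p = 4.6e-07). *Etv5* was at 580, 591, 611, 583 and 587 CPM in the IS and 13.1, 31.7, 57.6, 61.7 and 24.5 CPM in the caput, 15.7-fold apart (adjusted p = 1.6e-05). The IS samples lay within a narrow band, whereas the caput samples of these genes differed among themselves several-fold, with replicates 3 and 4 highest. *Etv1* was 6.20-fold higher in the IS (40.4 ± 2.25 against 6.52 ± 1.33 CPM, adjusted p = 6.4e-15).

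Among the feedback genes, *Dusp6* was at 252, 268, 322, 276 and 292 CPM in the WT IS and at 15.0, 17.1, 36.2, 32.0 and 19.2 CPM in the WT caput, 11.9-fold apart (adjusted p = 1.1e-06). *Spry4* was 5.82-fold higher in the IS (14.0 ± 2.68 against 2.40 ± 0.827 CPM, adjusted p = 3.8e-10) and *Spry2* 1.90-fold higher (30.7 ± 2.62 against 16.1 ± 1.72 CPM, adjusted p = 5.2e-09). The receptor gene *Ros1* was 1.98-fold higher (adjusted p = 4.8e-13), a much smaller step than that of *Etv4*, *Etv5* or *Dusp6*. *Ptpn6* differed least (27.5 ± 1.48 against 24.5 ± 1.06 CPM, 1.12-fold, adjusted p = 0.029), and its samples overlapped. The *Ptpn6* call was lost with DESeq2 (adjusted p = 0.067), without WT caput replicate 2 or 4 and without WT IS replicate 2, 4 or 5 (adjusted p from 0.054 to 0.080).

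*Ggt1*, whose transcription in the IS is known to depend on luminal factors of the testis, ran the other way. It was at 51.4, 37.9, 37.6, 38.2 and 46.6 CPM in the WT IS and at 417, 423, 397, 378 and 439 CPM in the WT caput, 9.72-fold lower in the IS (log2 fold change -3.28, SE 0.085, adjusted p = 2.3e-13). The counts are summed over the gene and do not tell its promoters apart. The ligand *Nell2*, too low for the fit, had 0, 2, 1, 1 and 0 counts in the WT IS and 12, 6, 8, 4 and 7 counts in the WT caput (p = 0.0079 by a two-sided exact permutation test on log2(CPM + 0.5), the smallest p that 5 against 5 samples allow, 0.032 adjusted over the 4 such tests).

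Without the 3 caput samples that held the most *Rnase10*, the *Ptpn6* call was lost (adjusted p = 0.063). These samples also held the most *Etv4*, *Etv5* and *Dusp6* of the caput samples of their genotype, so without them the gap widened by the choice of samples, to log2 6.55 for *Etv4*, 4.67 for *Etv5* and 4.04 for *Dusp6*.

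**Figure D2:**
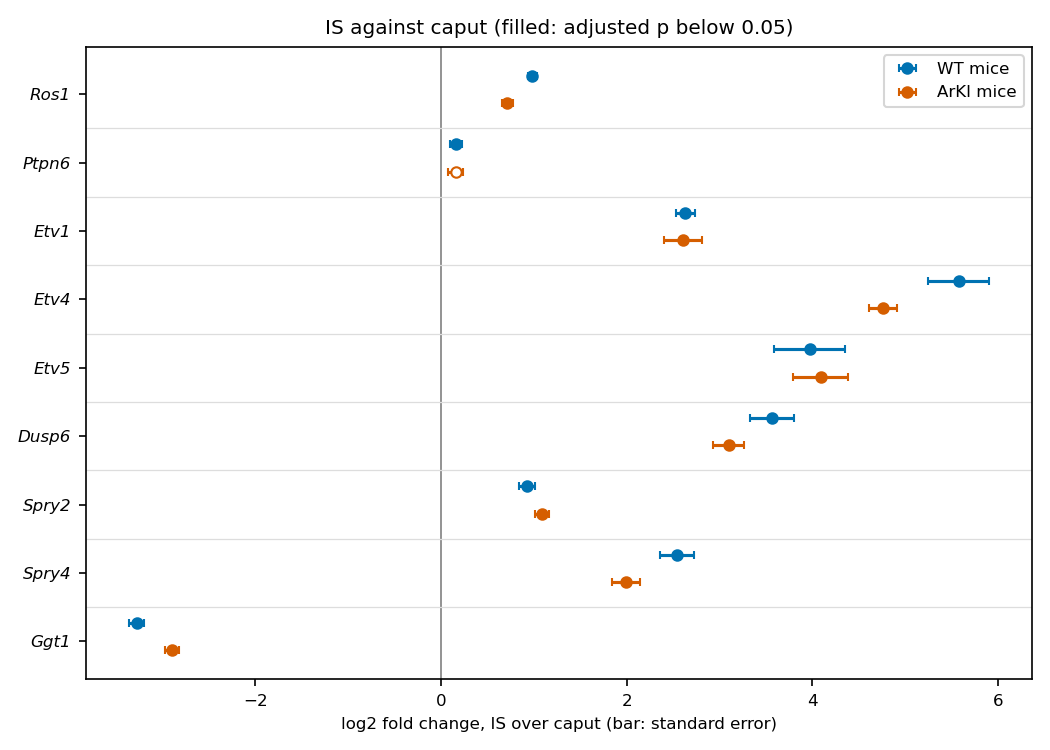
Log2 fold change of the IS over the caput for the 9 genes tested, in WT mice (blue) and ArKI mice (orange), with standard errors as bars and filled points at an adjusted p below 0.05. *Etv4* lay furthest to the right in both genotypes (5.57 and 4.76), *Ptpn6* was near 0, and *Ggt1* was the gene to the left (-3.28 and -2.90).

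In ArKI mice the segments differed in much the same genes, but *Spry2* stood above *Ros1* in the order of the log2 differences. There 8 of 9 genes were called between the segments, 7 higher and 1 lower in the IS, where 32.0% of 13718 genes tested were higher and 31.6% lower. The log2 differences were 4.76 for *Etv4*, 4.09 for *Etv5*, 3.10 for *Dusp6*, 2.61 for *Etv1*, 1.99 for *Spry4*, 1.09 for *Spry2*, 0.71 for *Ros1* and -2.90 for *Ggt1*, with adjusted p from 1.4e-14 to 2.3e-06. *Ptpn6* was at 27.8 ± 1.75 CPM in the ArKI IS and 25.0 ± 2.45 CPM in the ArKI caput and was not called (adjusted p = 0.099). It passed with all 20 epididymal samples in one fit (log2 difference 0.16, adjusted p = 0.049). *Nell2* had 0 to 2 counts in each ArKI IS and 2 to 8 in each ArKI caput sample (p = 0.016 by the same exact permutation test, 0.032 adjusted).

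Per length, as RPKM (CPM divided by kilobases of exon), the level in the WT IS was highest for *Etv5* (144 ± 3.04), followed by *Dusp6* (90.1 ± 8.51), *Ros1* (71.3 ± 4.39) and *Etv4* (66.3 ± 2.74; SD, n = 5). Lower RPKM were those of *Spry2* (14.7 ± 1.26), *Ggt1* (12.4 ± 1.85), *Ptpn6* (9.82 ± 0.530), *Etv1* (3.04 ± 0.170), *Spry4* (2.95 ± 0.563) and *Nell2* (0.020 ± 0.020). The samples of *Ros1* and *Etv4*, of *Spry2* and *Ggt1* and of *Etv1* and *Spry4* overlapped, so these neighbours were not separated. In the ArKI IS *Ros1* (75.6 ± 3.86 RPKM) stood above *Dusp6* (64.0 ± 5.74 RPKM), again with overlap. The WT caput was led by *Ggt1* (120 ± 6.97 RPKM) and *Ros1* (35.9 ± 1.91 RPKM), and *Etv5*, *Ptpn6*, *Spry2* and *Dusp6* followed at 7.63 to 9.20 RPKM with overlapping samples. The WT testis was led by *Nell2* (9.89 ± 0.834 RPKM, n = 3) and *Etv5* (4.75 ± 0.255 RPKM), and held *Ros1* at 0.521 ± 0.147 RPKM.

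In the IS, the comparison of ArKI with WT asks whether the pathway's RNAs differ with the knock-in. Of the 9 genes tested, 3 fell and 0 rose, where 14.6% of the 13434 genes tested fell and 15.0% rose. By edgeR 4 genes, *Ggt1* being the fourth, had an unadjusted p below 0.05, and DESeq2 and limma voom also called 3. The 3 were the ERK phosphatase gene *Dusp6* and the PEA3 factor genes *Etv4* and *Etv5*, and for each the highest ArKI sample lay below the lowest WT sample. The receptor gene *Ros1* was not among them, and the median log2 fold change of the 9 genes was 0.01, against -4.4e-05 for all genes.

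*Dusp6* was at 201, 187, 219, 216 and 178 CPM in the ArKI IS and 252, 268, 322, 276 and 292 CPM in the WT IS, 29.0% lower by the fit (log2 fold change -0.49, SE 0.070, adjusted p = 7.6e-05). *Etv4* was at 154, 128, 165, 177 and 157 CPM against 195, 209, 216, 209 and 199 CPM, 24.2% lower (log2 fold change -0.40, SE 0.066, adjusted p = 0.00022). *Etv5* was at 501, 473, 523, 551 and 524 CPM against 580, 591, 611, 583 and 587 CPM, 12.9% lower (log2 fold change -0.20, SE 0.045, adjusted p = 0.0023). All of these changes were well short of the difference between the segments: the lowest ArKI IS samples still held 128 CPM of *Etv4* and 178 CPM of *Dusp6*, where the highest caput samples held 8.72 and 36.2 CPM. None of the 3 reached a fold change of 2. When all 20 epididymal samples shared one estimate of the spread, *Dusp6* passed (adjusted p = 0.048), but *Etv4* (adjusted p = 0.13) and *Etv5* (adjusted p = 0.67) did not, and *Ggt1* did (log2 fold change 0.24, adjusted p = 0.046).

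The third PEA3 gene, *Etv1*, was at 43.5, 38.3, 37.8, 37.4 and 35.6 CPM in the ArKI IS and 41.1, 36.6, 42.6, 40.9 and 41.0 CPM in the WT IS, and the groups overlapped (log2 fold change -0.07, adjusted p = 0.46). *Ros1* was at 544, 574, 593, 614 and 616 CPM against 535, 520, 545, 564 and 608 CPM (log2 fold change 0.08, SE 0.050, adjusted p = 0.22). The Sprouty genes *Spry2* (0.12, adjusted p = 0.27) and *Spry4* (0.04, adjusted p = 0.86) and the phosphatase gene *Ptpn6* (0.01, adjusted p = 0.92) did not pass either. *Ggt1* was at 42.2, 48.6, 49.6, 51.5 and 58.2 CPM in the ArKI IS and 51.4, 37.9, 37.6, 38.2 and 46.6 CPM in the WT IS (log2 fold change 0.24, SE 0.10, adjusted p = 0.092). WT replicate 1 stood highest of its group, and without it *Ggt1* passed (0.31, adjusted p = 0.014), as it did without ArKI replicate 1 (0.30, adjusted p = 0.032). *Nell2* stayed at 0 to 2 counts in each IS sample of either genotype (p = 0.81 by the exact permutation test).

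Other genes moved in the same samples, and their part in these results was not tested. Of the 5 other IS genes listed, 4 fell in the ArKI IS, among them *Rnase10* (7678 ± 402 against 9568 ± 571 CPM), while the remaining one, *Rnase9*, was a caput gene in these tissues. All 5 smooth muscle markers fell (summed 224 to 400 CPM in the ArKI and 514 to 593 CPM in the WT IS). So did all 3 endothelial (38.3 to 53.0 against 53.1 to 67.3 CPM), 2 of 3 basal cell (192 to 220 against 246 to 290 CPM) and 5 of 10 tested immune markers (252 to 326 against 298 to 450 CPM). *Cd52*, 1 of these 5, held the largest part of the immune sum (98.3 ± 13.9 against 146 ± 39.0 CPM). It was at 325 ± 93.0 CPM in the WT caput, where *Ptprc* was at 6.71 ± 0.719 CPM. *Ptprc*, *Cd68* and *Lyz2* were among the 5 immune markers not called in the IS. Of the 4 efferent duct markers 2 rose (139 to 360 against 144 to 169 CPM), among them the ciliated cell gene *Foxj1*, at 57.2, 32.7, 118, 57.6 and 77.2 CPM in the ArKI and 21.4 to 33.8 CPM in the WT IS. Both sperm markers tested fell in the IS (summed 1.89 to 4.96 against 8.13 to 56.0 CPM over 7 genes). Of the 6 genes listed for the caput 3 fell, *Crisp1* (329 ± 84.5 against 1967 ± 393 CPM, -2.58), *Lcn8* (-0.47) and *Lcn9* (-0.40). Another 1, *Adam7*, rose (0.48). The 3 that fell stood higher in the WT IS than in the WT caput, so they were not caput genes in these tissues. *Crisp1* was at 1967 against 358 CPM, *Lcn8* at 12847 against 488 CPM and *Lcn9* at 9590 against 452 CPM. The summed level of the 6 was 70070 to 94264 CPM in the ArKI and 77042 to 84821 CPM in the WT IS. Of the 4 clear cell markers 1 rose, *Slc4a9* (1.86 ± 0.381 against 0.374 ± 0.217 CPM, 2.24), and 1 fell, *Atp6v0d2* (-0.33; summed 155 to 195 against 191 to 211 CPM). Both tested genes of the Sertoli cell list rose, *Sox9* (0.32) and *Wt1* (1.31; summed 136 to 177 against 115 to 135 CPM over 3 genes). *Sox9* alone was at 125 ± 8.18 CPM in the WT IS, whereas the whole list summed to 89.0 to 111 CPM in the WT testis. *Sox9* is therefore not taken here as a sign of Sertoli cells. Neither of the 2 tested Leydig cell markers was called. Over all genes 15.0% rose and 14.6% fell in the IS.

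**Figure D3:**
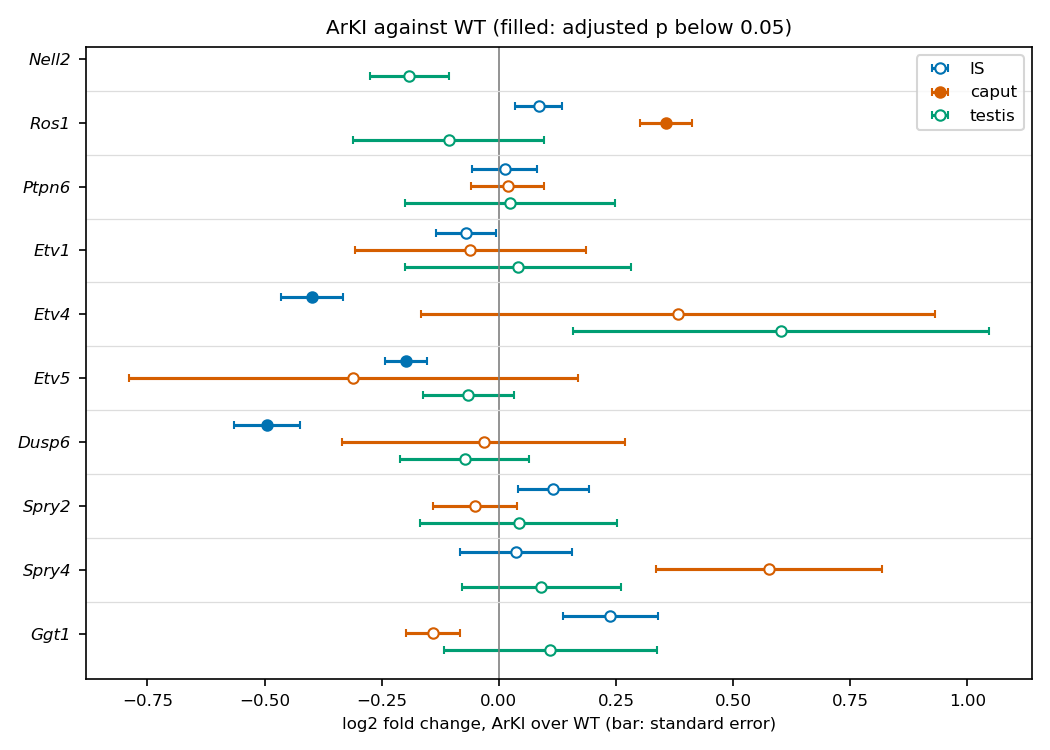
Log2 fold change of ArKI over WT for each gene in the IS (blue), caput (orange) and testis (green), with standard errors as bars and filled points at an adjusted p below 0.05. The filled points are *Dusp6* (-0.49), *Etv4* (-0.40) and *Etv5* (-0.20) in the IS and *Ros1* (0.36) in the caput, and *Nell2* was tested in the testis alone.

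In the caput the receptor gene moved and the downstream genes did not pass. Of the 9 genes tested, 1 rose, *Ros1*, and 0 fell, where 13.7% of the 13726 genes tested rose and 14.0% fell. By edgeR 3 genes had an unadjusted p below 0.05 (*Ros1*, *Spry4* and *Ggt1*), and DESeq2 and limma voom also called 1. The median log2 fold change was -0.03 over the 9 genes and 0.0017 over all genes.

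*Ros1* was at 368, 316, 374, 344 and 388 CPM in the ArKI caput and at 268, 276, 266, 284 and 303 CPM in the WT caput. All 5 ArKI samples lay above all 5 WT samples, and the level was 28.0% higher (log2 fold change 0.36, SE 0.055, adjusted p = 0.00011). The rise passed an adjusted p of 0.05 in each of the other fits and without any 1 sample (log2 fold change 0.33 to 0.40, adjusted p from 3.5e-09 to 0.0060), also without the 3 caput samples with the most *Rnase10* (0.33, adjusted p = 0.0060). Even so it stayed below the WT IS, where the lowest sample held 520 CPM. In the same caput samples 2 of the 3 tested efferent duct markers rose (summed 77.6 to 90.2 CPM in the ArKI and 43.7 to 56.6 CPM in the WT caput over 4 genes). Of 9 immune markers tested 1 rose (*Lyz2*, 0.78), and of 3 endothelial markers 1 rose (*Pecam1*, 0.42). Of 3 clear cell markers tested 1 rose (*Atp6v1b1*, 0.61) and 1 fell (*Atp6v0d2*, -0.25). Of 3 genes listed for Sertoli cells 1 rose, *Sox9* (0.74). Another 1 fell, *Rhox5* (5.76 ± 0.756 CPM in the WT and 0 counts in every ArKI caput sample). Per the study *Rhox5* is also a gene of the caput, and neither gene is taken here as a sign of Sertoli cells. Of the 6 genes listed for the caput 1 fell. *Lcn8* (-1.90, adjusted p = 0.24) and *Lcn9* (-1.91, adjusted p = 0.16), which stood higher in the WT IS than in the WT caput, did not pass. Of 2 tested Leydig cell markers 1 rose. Over all genes 13.7% rose and 14.0% fell in the caput. None of the 5 smooth muscle markers or 5 other IS genes was called, though the IS genes had a median log2 fold change of -1.19 (*Cst8* -2.01, adjusted p = 0.17, and *Slc1a1* -1.22, adjusted p = 0.074). The part of other cells in the *Ros1* level was not tested.

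*Etv4*, *Etv5* and *Dusp6* varied more from sample to sample than between the genotypes. *Etv5* was at 20.3, 16.4, 55.2, 29.6 and 25.2 CPM in the ArKI and at 13.1, 31.7, 57.6, 61.7 and 24.5 CPM in the WT caput (log2 fold change -0.31, SE 0.48, adjusted p = 0.70). When a sample was left out, the log2 fold change of *Etv5* ran from -0.66 to -0.066. *Etv4* was at 4.66, 4.63, 8.72, 5.03 and 5.0 CPM against 0.956, 1.13, 8.55, 6.88 and 4.63 CPM (0.38, SE 0.55, adjusted p = 0.67). Its log2 fold change ran from 0.12 without WT replicate 1 to 0.77 without WT replicate 3, and was 1.14 (adjusted p = 0.11) without the 3 samples with the most *Rnase10*. *Dusp6* was at 18.7, 17.9, 34.5, 24.0 and 19.4 CPM against 15.0, 17.1, 36.2, 32.0 and 19.2 CPM (-0.03, SE 0.30, adjusted p = 0.96). With standard errors this wide, a change of the size seen in the IS was not detectable for these genes in the caput.

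*Spry4* was at 3.52, 2.31, 5.08, 3.17 and 3.36 CPM in the ArKI caput and 1.91, 2.05, 3.73, 2.64 and 1.65 CPM in the WT caput, with overlap (log2 fold change 0.58, SE 0.24, adjusted p = 0.088). It passed with all 20 epididymal samples in one fit (0.59, adjusted p = 0.040), without the 3 caput samples with the most *Rnase10* (0.74, adjusted p = 0.048), without WT replicate 3 (0.79, adjusted p = 0.023) and without ArKI replicate 2 (0.66, adjusted p = 0.045). The 3 samples also held the most *Spry4* of the caput samples of their genotype, so the pass without them rests in part on their choice. *Ggt1* was at 397, 347, 350, 405 and 368 CPM in the ArKI and 417, 423, 397, 378 and 439 CPM in the WT caput, also with overlap (-0.14, SE 0.058, adjusted p = 0.083), and it passed without WT replicate 4 (-0.17, adjusted p = 0.047). *Etv1* (-0.06, adjusted p = 0.89), *Spry2* (-0.05, adjusted p = 0.74) and *Ptpn6* (0.02, adjusted p = 0.90) did not pass.

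The ligand gene *Nell2* had 2, 2, 4, 8 and 7 counts in the ArKI and 12, 6, 8, 4 and 7 counts in the WT caput, a difference of -0.44 in log2(CPM + 0.5) (p = 0.040 by the two-sided exact permutation test, 0.053 adjusted over the 4 such tests). In the same samples all 6 tested sperm and spermatid markers fell (summed 31.3 to 88.5 CPM in the ArKI and 189 to 296 CPM in the WT caput over 7 genes), and their part in the *Nell2* counts was not tested.

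The caput samples could be placed by how much IS transcript they held. Over the 10 samples, deviations from the group mean of log2(CPM + 0.5) in *Etv5* ran with those in *Rnase10*, a gene outside the pathway lists (Pearson's r 0.99), and those in *Dusp6* with those in *Ovch2* (0.98). Those were the closest pairs. Over *Etv1*, *Etv4*, *Etv5*, *Dusp6* and *Spry4* the correlations in the caput ran from 0.69 to 0.99 with *Rnase10*, from 0.66 to 0.98 with *Ovch2* and from 0.56 to 0.93 with the IS gene *Cst8*. Among these 5 genes the 10 pairwise correlations ran from 0.55 to 0.93 in the caput (median 0.79). In the IS they ran from -0.23 to 0.94 (median 0.45), with *Etv4* and *Etv5* the closest pair. Those of the 5 genes in the IS ran from 0.03 to 0.40 with *Rnase10*, from 0.07 to 0.77 with *Ovch2* (*Dusp6* highest) and from -0.24 to 0.52 with *Cst8*. Deviations of *Ros1* in the caput were nearly unrelated to those of *Rnase10* (0.20). These correlations are descriptions over samples that share a dissection and a library each, and the part of dissection in them was not tested.

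**Figure D4:**
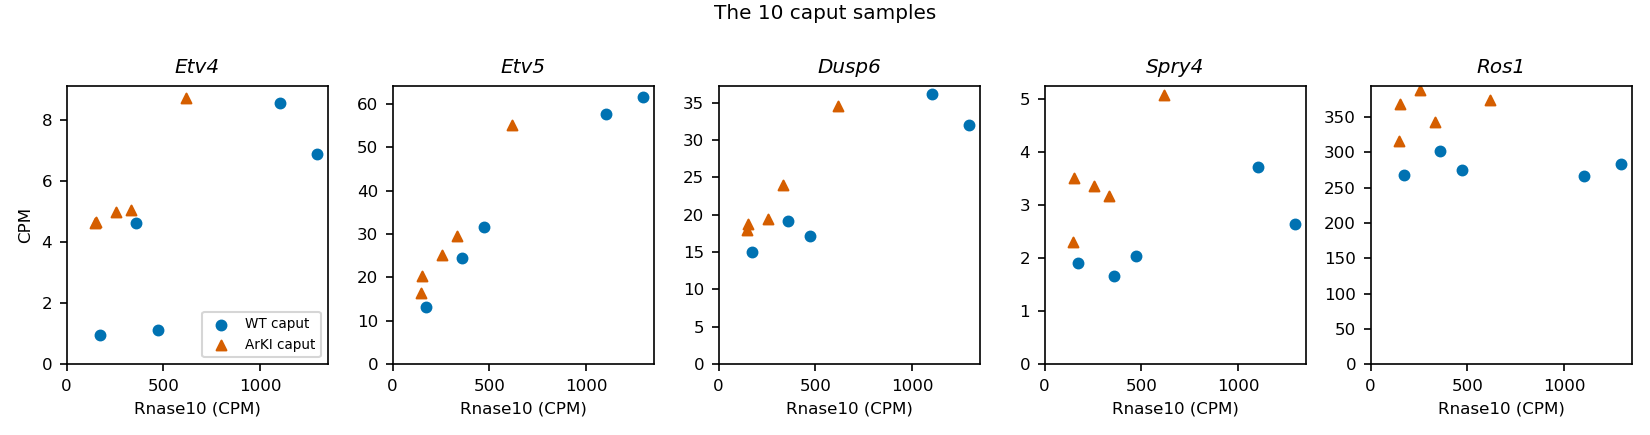
Levels of *Etv4*, *Etv5*, *Dusp6*, *Spry4* and *Ros1* (CPM, vertical axes) against that of the IS gene *Rnase10* (CPM, horizontal axis) in the 5 WT (blue circles) and 5 ArKI (orange triangles) caput samples. *Etv5* and *Dusp6* were higher with more *Rnase10* in both genotypes, whereas *Ros1* was at 316 CPM or more in every ArKI and at 303 CPM or less in every WT sample whatever its *Rnase10* level.

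The test of the difference itself, the genotype effect in the IS minus that in the caput, called 2 of the 9 genes, 1 in each direction, where 7.77% of 14329 genes tested were called with a positive and 7.38% with a negative difference. For *Ros1* the difference was -0.27 (SE 0.077, adjusted p = 0.017), from effects of 0.08 in the IS and 0.36 in the caput. For *Ggt1* it was 0.38 (SE 0.12, adjusted p = 0.029), from effects of 0.24 and -0.14. Neither call held everywhere: that of *Ros1* was lost without WT IS replicate 5 (-0.23, adjusted p = 0.051) and without the 3 caput samples with the most *Rnase10* (-0.23, adjusted p = 0.098), and that of *Ggt1* without WT IS replicate 2 or 3 or ArKI IS replicate 5 (adjusted p from 0.051 to 0.055).

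For *Etv4* (-0.81, SE 0.44, adjusted p = 0.25), *Dusp6* (-0.47, SE 0.29, adjusted p = 0.33) and *Etv5* (0.12, SE 0.45, adjusted p = 0.91) the fall in the IS was not shown to differ from the change in the caput. When a sample was left out, the difference ran from -1.20 to -0.52 for *Etv4* and from -0.66 to -0.26 for *Dusp6*. Without the 3 caput samples with the most *Rnase10*, *Etv4* (-1.55, adjusted p = 0.012) and *Dusp6* (-0.73, adjusted p = 0.0018) passed and *Etv5* did not (-0.22, adjusted p = 0.66). These 3 samples, chosen after seeing the data, held the most *Etv4* and *Dusp6* of the caput samples of their genotype. Their removal itself moved the caput effect from 0.38 to 1.14 for *Etv4* and from -0.03 to 0.24 for *Dusp6*. No conclusion is drawn from these 2 passes.

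In the testis, the source of the ligand, 0 of the 10 genes were called between ArKI and WT by edgeR, DESeq2 or limma voom, where 1.64% of the 15838 genes tested rose and 0.328% fell. *Nell2* was at 39.4, 44.1 and 40.0 CPM in the ArKI and 50.7, 43.9 and 44.0 CPM in the WT testis (log2 fold change -0.19, SE 0.084, adjusted p = 0.33). Of the 10 genes, *Nell2* alone had an unadjusted p below 0.05 by edgeR, and its samples overlapped. The largest estimate was that of *Etv4* (0.60, SE 0.44, adjusted p = 0.61), which rested on 3 to 20 counts per sample. It ran from 0.28 without WT replicate 2 to 1.55 without WT replicate 1. The remaining 8 genes lay between -0.11 and 0.11.

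Other genes of the pathway were counted from lists. Among lumicrine partners (*Nell1*, *Gm1673*, *Ovch2*, *Adam28* and *Adam3*), 2 of 4 tested genes fell in the IS and 0 rose (median log2 fold change -0.19), and 0 of 4 were called in the caput (-0.37). Over all genes 14.6% fell and 15.0% rose in the IS, and 14.0% fell and 13.7% rose in the caput. In the caput 1 gene, *Ovch2*, had an unadjusted p below 0.05 by edgeR (66.6 ± 25.9 against 148 ± 69.1 CPM, -1.14, adjusted p = 0.059). There 1 gene was called with DESeq2, with the replicate block, with all 20 samples in one fit and without WT caput replicate 1 or ArKI caput replicate 3 or 4, and 0 with limma voom. In the IS *Ovch2*, encoding a secreted protease that processes ADAM3 on sperm, was at 2089 ± 159 CPM in the ArKI and 2993 ± 117 CPM in the WT IS (log2 fold change -0.52, adjusted p = 3.9e-07). *Nell1*, a relative of *Nell2*, had 15, 31, 42, 13 and 32 counts in the WT IS and 2, 1, 2, 1 and 3 counts in the ArKI IS. Scaled to depth, the WT IS held 12.7 times the *Nell1* reads of the ArKI IS (95% exact counting interval 6.51 to 28.5, which covers counting error only and not the spread between mice). *Nell1* passed the filter only through the WT IS samples, so its call in the fit is not taken as a test. With at least 10 counts in every sample *Nell1* was left out, and 1 lumicrine partner was called in the IS. The *Ovch2* call was lost with all 20 epididymal samples in one fit (adjusted p = 0.16).

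Of the 20 ERK cascade genes, adaptors and kinases between receptor and ERK, 4 fell and 0 rose in the IS (median log2 fold change -0.01), and 4 fell and 1 rose in the caput (-0.01). Over all genes 14.6% fell and 15.0% rose in the IS, and 14.0% fell and 13.7% rose in the caput. In the IS these included the kinase gene *Braf* (90.4 ± 3.37 against 110 ± 5.77 CPM, -0.28, adjusted p = 0.00015) and the MEK gene *Map2k2* (-0.15, adjusted p = 0.049), the last lost with RLE or library size scaling, DESeq2 and the stricter filter (adjusted p from 0.051 to 0.14) and in 7 of the 10 fits without a sample. In the caput the adaptor genes *Gab1* (70.0 ± 8.25 against 102 ± 4.80 CPM, -0.54, adjusted p = 5.6e-06) and *Frs2* (-0.39, adjusted p = 0.0023) and the kinase gene *Araf* (355 ± 54.7 against 475 ± 42.9 CPM, -0.43, adjusted p = 0.0031) fell. The count in the IS was 2 with DESeq2 and also without WT IS replicate 1, 3 or 5 or ArKI IS replicate 1 or 3. That in the caput was 3 without the 3 samples with the most *Rnase10*.

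Of the 15 other feedback and target genes of ERK tested, 3 rose and 3 fell in the IS (median -0.10), and 3 rose and 2 fell in the caput (0.08), where 15.0% of all genes rose and 14.6% fell in the IS, and 13.7% rose and 14.0% fell in the caput. In the IS the phosphatase gene *Dusp5* (19.7 ± 2.68 against 35.1 ± 4.76 CPM, -0.84, adjusted p = 6.4e-06) and *Phlda1* (133 ± 14.1 against 190 ± 8.31 CPM, -0.52, adjusted p = 2.8e-06) fell, and the phosphatase gene *Dusp7* rose (28.4 ± 2.20 against 19.9 ± 2.44 CPM, 0.51, adjusted p = 0.00022). In the caput *Ccnd1*, encoding cyclin D1, rose (215 ± 11.8 against 122 ± 8.24 CPM, 0.82, adjusted p = 1.5e-08), and *Il17rd*, a feedback inhibitor of FGF signalling, fell (-0.54, adjusted p = 0.0017). *Fos*, an immediate early gene, rose in the caput (2.65 ± 1.00 against 1.43 ± 0.520 CPM, 0.84, adjusted p = 0.045), a call lost with limma voom (adjusted p = 0.053), with all 20 samples in one fit (adjusted p = 0.072) and in 7 of the 10 fits without a sample. In the caput 3 to 7 of these genes were called when a sample was left out, 3 of them without WT caput replicate 2 or 5 or ArKI caput replicate 4, and 8 were called without the 3 samples with the most *Rnase10*.

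Of the 8 tested genes of FGFs and other receptor tyrosine kinases, 4 fell and 0 rose in the IS (median -0.21), where 14.6% of all genes fell and 15.0% rose. They included *Fgfr2* (34.6 ± 4.42 against 47.2 ± 4.31 CPM, -0.44, adjusted p = 0.00052), *Egfr* (-0.44, adjusted p = 0.00078) and *Fgfr3* (35.7 ± 3.81 against 45.7 ± 4.36 CPM, -0.36, adjusted p = 0.0017). In the caput 1 of 7 rose, the HGF receptor gene *Met* (17.9 ± 1.30 against 11.8 ± 0.511 CPM, 0.58, adjusted p = 5.1e-05), and 2 fell, *Egfr* (-0.35, adjusted p = 0.018) and *Kit* (-0.24, adjusted p = 0.013; median -0.09), where 13.7% of all genes rose and 14.0% fell. The *Egfr* call in the caput was lost without ArKI replicate 3 (adjusted p = 0.050) and without the 3 samples with the most *Rnase10* (adjusted p = 0.094).

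Of 5 tested genes of glutathione synthesis and hydrolysis beside *Ggt1*, 1 rose and 1 fell in each segment (medians 0.03 and 0.11). With 13.7% to 15.0% of all genes called in each direction, a count of 1 in 5 lay near the share over all genes. The subunits of glutamate-cysteine ligase parted in the IS: the modifier gene *Gclm* rose (199 ± 6.25 against 167 ± 4.46 CPM, 0.25, adjusted p = 9.1e-05) and the catalytic gene *Gclc* fell (80.7 ± 3.54 against 93.7 ± 4.13 CPM, -0.22, adjusted p = 0.0017). In the caput *Gclc* fell as well (-0.25, adjusted p = 0.00071), and *Ggt5* rose (4.38 ± 0.662 against 3.20 ± 0.316 CPM, 0.45, adjusted p = 0.047). This call was lost with DESeq2 (adjusted p = 0.088), the replicate block (0.094), every gene with a count (0.062), one fit of 20 samples (0.066), without the 3 *Rnase10*-rich samples (0.15) and 7 of the 10 times that a sample was left out.

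In the testis 0 of 4 lumicrine partners, 0 of 20 cascade genes and 0 of 5 glutathione genes were called by edgeR, where 1.64% of all genes rose and 0.328% fell. Of the 16 feedback and target genes tested there 1 rose, *Errfi1*, encoding an inhibitor of the EGF receptor (46.9 ± 5.90 against 27.9 ± 3.27 CPM, n = 3, log2 fold change 0.72, adjusted p = 0.00011). Of the 8 receptor genes 1 fell, *Kit* (30.8 ± 2.52 against 41.8 ± 3.43 CPM, -0.46, adjusted p = 0.0049). Between the WT segments the feedback and target list ran with the 9 genes above, with 11 of 15 higher and 3 lower in the IS (median log2 difference 1.87), whereas the cascade genes were split, 9 higher and 6 lower of 20 (0.04). Over all genes 35.8% were higher and 35.4% lower in the IS, and the split of the cascade genes lay near these shares.

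**Figure D5:**
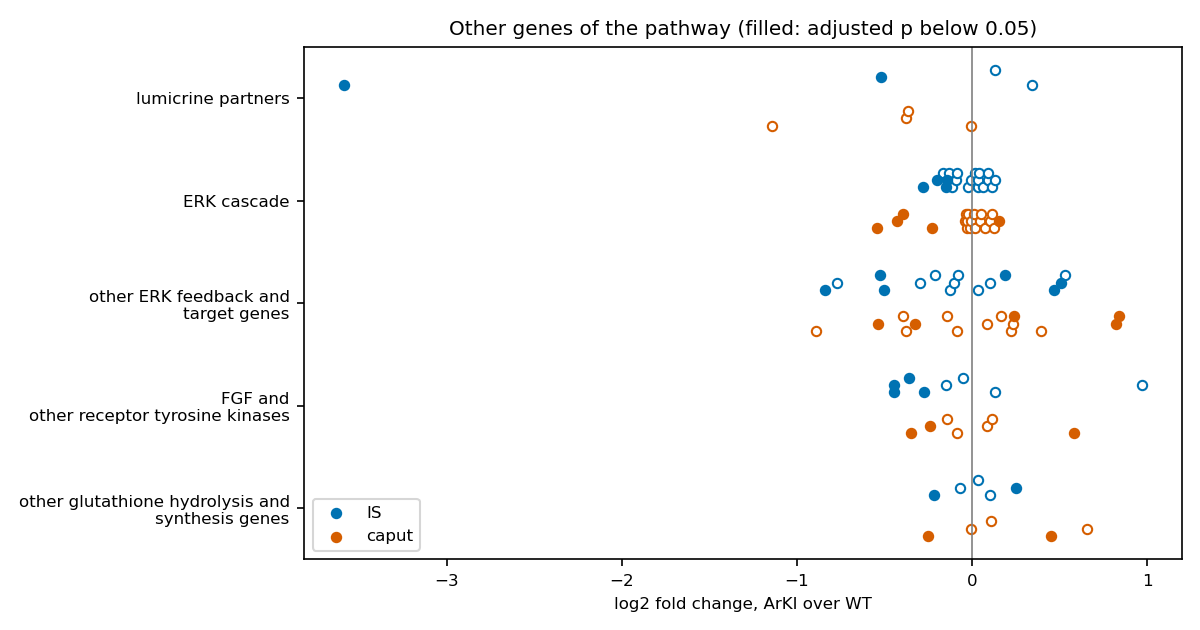
Log2 fold change of ArKI over WT for the other tested genes of each pathway list, in the IS (blue) and caput (orange), filled at an adjusted p below 0.05. Filled points lie on both sides of 0 for the feedback and target genes, and only to the left among the receptor tyrosine kinases of the IS. The point at the far left is *Nell1*, whose fitted value (-3.58) rests on 1 to 3 counts per ArKI sample.

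The genes whose pattern was most like that of *Ros1* over the 20 epididymal samples were *Nbea* (Pearson's r 0.99 in log2(CPM + 0.5)), *Fam84b* (0.98), *Atp7a* (0.98), *Amica1* (0.98) and *Sox13* (0.98), out of 14328 genes ranked. The points share their segment and genotype, so the correlation largely restates the group levels. *Amica1* had the widest step between segments (129 ± 14.7 CPM in the WT IS, 6.75 ± 1.5 CPM in the WT caput and 15.6 ± 2.86 CPM in the ArKI caput), and *Sox13* stood at 146 ± 6.31, 37.7 ± 3.05 and 58.9 ± 5.70 CPM in the same groups. *Nbea* was at 110 ± 3.85 CPM in the WT IS, 58.5 ± 3.20 CPM in the WT caput and 74.7 ± 8.30 CPM in the ArKI caput.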

How the data were processed

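RNA was sequenced on an Illumina HiSeq as 50 bp single-end reads. The authors aligned them with STAR to mm10, counted uniquely mapped reads per RefSeq gene with Subread 1.5.1, and deposited raw counts of 23337 genes without normalization. The labels name an unstranded kit and the methods a stranded one, so the strand setting is not given in the sources used here. The genes, lists and tests were chosen with earlier results of these data known.

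Each comparison was fitted on all genes with edgeR 4.0.16 in R 4.3.3: filterByExpr (minimum count 10, total 15), TMM factors, a robust quasi-likelihood F test and Benjamini-Hochberg adjustment. Genes with an adjusted p below 0.05 were called. The methods name ROTS, which was not at hand, so this test took its place. Adjusted p-values are from edgeR unless another tool is named, and p-values set each difference against the spread between these samples. CPM were scaled by TMM over all 26 samples, and RPKM used exon lengths of the GENCODE annotation of GRCm38. Genes below the filter were compared by exact permutation tests with a pseudocount of 0.5. A count of 3 equals 0.234 to 0.631 CPM in the epididymis.

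The text names all 10 genes, the up to 3 called genes with the largest change per pathway list in the IS and in the caput, and the 5 genes most like *Ros1*. *Rnase10*, *Rnase9*, *Foxj1*, *Errfi1*, *Kit* in the testis, *Ovch2* in the caput, *Cst8*, *Slc1a1*, *Lyz2*, *Pecam1*, *Atp6v1b1*, *Atp6v0d2*, *Slc4a9*, *Crisp1*, *Lcn8*, *Lcn9*, *Adam7*, *Sox9*, *Wt1* and *Rhox5* were added after their values were seen. So were *Esr1*, *Aqp1*, *Cd52*, *Ptprc* and *Cd68*. The gene changed in ArKI mice and 1 cascade gene are not reported here. Alternatives were RLE factors, library size only, a filter of at least 1 count, at least 10 counts in every sample, DESeq2 1.42.0, limma voom 3.58.1, a block for the replicate number, one fit of all 20 epididymal samples, the threshold of the study (FDR below 0.01, or 0.2 in the testis, and a fold change above 2) and leaving out each sample. Leaving out the 3 caput samples with the most *Rnase10* was chosen after seeing the data. The fits were tested on simulated data. Promoter windows are from RefSeq (GRCm38.p6). Figures used matplotlib 3.10.9.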

Additional observations from a re-analysis of the deposited data

Results flagged for a closer look

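Values of 3 groups held a sample far from the others, of 38 groups of 5 looked at, where chance gives about 1.9. *Etv1* was at 36.6 CPM in WT IS replicate 2, below the other WT IS samples. ArKI caput replicate 3 stood above its group for *Etv1* (10.9 CPM) and *Etv4* (8.72 CPM), and it also held the most *Rnase10* of the ArKI caput samples. The part of dissection in these values was not tested.

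The genotype effect differed between the segments, by a test of the difference itself in edgeR's quasi-likelihood fit, for *Ros1* (IS effect minus caput effect -0.27 on the log2 scale, adjusted p = 0.017) and *Ggt1* (0.38, adjusted p = 0.029).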

How the results depend on the processing

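Of 1432 recomputed log2 fold changes of the 10 genes, 1340 kept their direction and their side of the threshold, 14 lost the call, 16 gained it and 62 changed sign. The threshold of the study called 0 genes between genotypes in the IS and 0 in caput, since no change reached a fold of 2. In the caput 2 genes, *Ros1* and *Spry4*, were called both by one fit of all 20 epididymal samples and without the 3 samples with the most *Rnase10*. Leaving out a sample gave 3 to 4 called genes in the IS, 1 to 2 in the caput and 1 to 3 for the difference between segments. The samples that changed these calls are named beside the results, except that *Spry4* gained the call for the difference without WT caput replicate 3 (-0.76, adjusted p = 0.046).

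The sign changes were all in values that did not pass. Leaving out a sample moved, in the IS, *Ptpn6* from -0.018 to 0.034 and *Spry4* from -0.019 to 0.14, and in the caput *Ptpn6* from -0.014 to 0.064, *Etv1* from -0.39 to 0.075 and *Dusp6* from -0.23 to 0.17. In the testis it moved *Ros1* from -0.34 to 0.044, *Ptpn6* from -0.13 to 0.10, *Etv1* from -0.093 to 0.24, *Dusp6* from -0.21 to 0.030, *Spry2* from -0.013 to 0.12 and *Spry4* from -0.059 to 0.23. For the difference between segments it moved *Ptpn6* from -0.037 to 0.039, *Etv1* from -0.17 to 0.33 and *Etv5* from -0.12 to 0.48. In the caput *Dusp6* was at 0.0010 with library size only, 0.049 with limma voom and 0.24 without the 3 samples, where *Etv5* was at 0.030 and *Spry2* at 0.013. The segment difference of *Ptpn6* was 0.00042 with RLE factors, 0.0030 with every gene that had a count, 0.0023 with the stricter filter, 0.0013 with DESeq2 and 0.0051 with limma voom. That of *Etv1* was 0.043 with limma voom and 0.11 without the 3 samples, and that of *Etv5* -0.054 and -0.22. The causes were not tested.

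The replicate numbers were not taken to pair the samples, since not every same-numbered pair correlated above 0.1 in its deviations. Between genotypes the correlations lay between -0.19 and 0.20 (caput) and between -0.09 and 0.20 (IS). Between the IS and caput samples of 1 genotype they lay between -0.009 and 0.18 in WT mice, where replicates 3, 4 and 5 correlated best with their own number (0.18, 0.12 and 0.18), and between -0.12 and 0.20 in ArKI mice, where replicates 4 and 5 did. Which IS and caput samples share a mouse is not given in the sources used here. With the replicate block, 3 genes were called in the IS, 1 in the caput, 0 in the testis and 2 for the difference between segments, where *Etv1* was at 0.00037, and 9 and 8 between segments in WT and ArKI mice. Between testis and epididymis the block was not run.

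Scaling by library size only moved the median of all genes by -0.41 (testis against IS) and -0.39 (testis against caput), and RLE factors by 0.11 and 0.12, while no direction of the 10 genes turned. Depth limits the genes under the filter, and the spread between samples limits caput *Etv4*, *Etv5* and *Dusp6*.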
